A study of Mus musculus with 4 samples.

Results

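The genes described here were 10 members of the AP-1 and early response families, Fos, Fosb, Fosl1, Fosl2, Jun, Junb, Jund, Atf3, Egr1 and Ier2, out of 21000 coding genes with curated RefSeq transcripts on mm10. They were chosen by name. Each was examined for ATAC-seq peaks within 500 bp of its curated start site, called its promoter, and in a window from 50 kb upstream of that start site to 50 kb past the end of the gene. The 10 windows held 146 of the 147146 regions obtained by merging the peaks of all libraries. ATAC-seq marks open chromatin through a transposase that inserts adapters into accessible DNA. Nuclei came from the visceral fat of 8-week-old mice of the outbred CD-1 stock. The 2 control libraries belonged to the sesame oil lineage and the 2 BPA libraries to descendants of gestating females (F0) that had received intraperitoneal bisphenol A (BPA), a component of plastics, at 50 mg/kg daily from embryonic day 7.5 to 13.5. The BPA animals, themselves not injected, are F3 by their sample titles and F4 by the study's text. The libraries came from 4 mice by the same text, and neither sex nor batch is given. Genetic variants segregate between animals of this stock, so genotype and lineage cannot be told apart with 2 libraries a group.

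AP-1 is a dimer of a Jun family protein (Jun, Junb, Jund) with a Fos family protein (Fos, Fosb, Fosl1, Fosl2) or a related ATF protein such as Atf3. It binds the motif TGANTCA, mostly in enhancers. Most of these genes are immediate early genes, transcribed within minutes of a stimulus through factors bound beforehand, and Egr1, a zinc finger factor, and Ier2, a small nuclear protein, are induced in the same way. In adipose tissue they respond to growth factors, inflammatory signals and the handling of cells.

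The peak lists held 72375 to 98060 peaks, with a median pile-up at the summit of 19 to 38 fragments. The median local background was 6.56 in BPA 2, 2.38 in BPA 1 and 4.28 to 4.55 in the controls. Pile-up and background thus differed most within the BPA group, and strength was read mainly as a rank, the percent of the peaks in the same list with a −log10 q-value at least as high, so that a low rank is a strong peak. Promoters of adipocyte markers, among them Adipoq, Plin1 and Pparg, had a peak in every library in 7 of 7 genes, and the hepatocyte markers Alb, Apoa1 and Ttr had none. Adipocyte ranks overlapped between the groups for 5 of the 7 genes, with a median difference, BPA minus control, of 8.77 percentage points (Adipoq 19.7, Plin1 30.0), while Pparg (-27.0) and Cebpa (-10.3) were stronger in both BPA libraries. Endothelial markers were the list that moved most in presence. Tek and Kdr had a promoter peak in all 4 libraries, whereas Pecam1, Cdh5 and Tie1 had one in each BPA library but not in the controls. Of all 21000 coding genes, 2.5% were open at the promoter in BPA only and 0.433% in control only. Best ranks of the 5 endothelial promoters lay between 8.44% and 32.9% in the BPA libraries. Leukocyte markers had promoter peaks in 2 and 3 of 6 genes in the controls and in 4 and 4 in BPA. The fibroblast or progenitor markers Pdgfra (-9.97) and Col1a1 (-42.7) and the mesothelial marker Wt1 (-7.81) also ranked ahead in both BPA libraries, whereas Dpp4 overlapped (11.8). The mesothelial marker Upk3b went the other way, with 34.2% and 35.3% in the controls, 52.2% in BPA 1 and no peak in BPA 2. Msln, also mesothelial, had no promoter peak in any library. Among the 12157 genes open at the promoter in every library, ranks were apart with BPA stronger for 40.7% and with control stronger for 18.7%. The marker ranks, with BPA ahead for 2 of 7 adipocyte genes, are to be read against these shares. In bulk nuclei, more cells of a type and more open chromatin per cell cannot be told apart, and the part of cell composition in the results below was not tested.

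The reference sequences of 7 of the 10 promoters, 250 bases before to 50 bases after the start site, were matched in RefSeq on mm10, while Fosl1, Egr1 and Ier2 were not. Those of Fos, Fosl2 and Atf3 are shown because their peaks ranked apart between the groups, and that of Jund because its peak lay elsewhere. Capitals mark the TATA box in Fos (TATAAA, starting at -33 from the start site) and an Egr site in Fosl2 (GCGNGGGCG, starting at -79). Each is written 5′ to 3′ on the strand of the gene.
Fos promoter, chr12:85473640-85473939, plus strand: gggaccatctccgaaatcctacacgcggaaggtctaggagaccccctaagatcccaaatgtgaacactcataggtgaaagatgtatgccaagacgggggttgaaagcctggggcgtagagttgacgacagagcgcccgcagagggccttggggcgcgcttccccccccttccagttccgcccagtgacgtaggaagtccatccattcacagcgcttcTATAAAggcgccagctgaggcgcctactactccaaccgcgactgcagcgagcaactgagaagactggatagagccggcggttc
Fosl2 promoter, chr5:32136222-32136521, plus strand: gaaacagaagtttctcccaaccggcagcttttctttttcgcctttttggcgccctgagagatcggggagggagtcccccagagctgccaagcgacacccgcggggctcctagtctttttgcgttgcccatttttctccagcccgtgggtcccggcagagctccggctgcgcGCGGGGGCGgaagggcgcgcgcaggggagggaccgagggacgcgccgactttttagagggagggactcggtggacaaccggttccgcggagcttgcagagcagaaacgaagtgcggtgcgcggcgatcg
Atf3 promoter, chr1:191183284-191183583, minus strand: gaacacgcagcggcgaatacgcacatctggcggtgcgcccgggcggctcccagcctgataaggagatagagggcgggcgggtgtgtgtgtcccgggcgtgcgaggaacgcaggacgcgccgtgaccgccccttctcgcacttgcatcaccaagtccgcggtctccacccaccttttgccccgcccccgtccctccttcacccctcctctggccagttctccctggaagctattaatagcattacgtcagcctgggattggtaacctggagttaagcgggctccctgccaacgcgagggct
Jund promoter, chr8:70697489-70697788, plus strand: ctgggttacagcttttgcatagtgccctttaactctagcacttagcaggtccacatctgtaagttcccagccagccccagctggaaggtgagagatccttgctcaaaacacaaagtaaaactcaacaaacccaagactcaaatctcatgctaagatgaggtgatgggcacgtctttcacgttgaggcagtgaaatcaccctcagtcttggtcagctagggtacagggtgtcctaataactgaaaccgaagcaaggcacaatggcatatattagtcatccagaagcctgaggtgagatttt

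The promoters were rich in G+C, with a median of 64.7% against 52.7% over 32851 promoters, and a median of 21 CpG dinucleotides against 7. The Jund window was the exception, with 46.7% G+C and 3 CpG dinucleotides. Both strands were searched for 5 motifs. TATAAA was present in 2 of 7 member promoters, Fos and Junb, and in 13.6% of all promoters. The Egr site was present in Fosb and Fosl2, also 2 of 7, and in 5.55% of all promoters. No member window held the AP-1 site TGANTCA (7.81% of all promoters), the cyclic AMP response element TGACGTCA (1.79%) or a CArG box, the core of the serum response element (1.63%). These are matches of letters in a 300-base window, and they say nothing of the elements outside it.

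Peaks at the promoters of 7 members, Fos, Fosb, Fosl2, Jun, Junb, Atf3 and Egr1, were found in all 4 libraries, a share of 70% against 57.9% of all coding genes. The other 3 lacked a peak in at least 1 library. No member had a promoter peak in both libraries of 1 group and in neither of the other, which was seen for 2.5% of all genes with BPA only and for 0.433% with control only. The absences at Fosl1 and Ier2 were both in control 2. At Fosl1, which encodes Fra-1, a Fos family partner without a transactivation domain, control 1 had a weak peak with a rank of 78.1% and a −log10 q-value of 3.16, control 2 had none within 2518 bp, and BPA 1 and BPA 2 ranked 29.6% and 20.8%. At Ier2 the ranks were 22.6% in control 1, 12.6% in BPA 1 and 11.4% in BPA 2, and the nearest peak of control 2 ended 952 bp downstream of the start site with a rank of 43.4%. The merged promoter region of Ier2 held stronger control peaks, with ranks of 18.4% in control 1 and 22.7% in control 2.

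The missing Jund peaks were a matter of position. Jund, the most constitutively expressed Jun gene, had a strong peak in every library that began inside its single exon, starting 515 and 443 bp from the curated start site in controls 1 and 2 and 626 bp from it in both BPA lists. Only control 2 therefore met the limit of 500 bp. These peaks ranked 13.0%, 8.19%, 2.66% and 3.81% in the same order, so that both BPA libraries were ahead of both controls. With the start sites of GENCODE vM21 the Jund promoter had a peak in all 4 libraries, and with 1000 bp either side of the RefSeq start sites 9 members did, all but Fosl1.

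Ranked by −log10 q-value, 4 of the 7 promoters compared were stronger in both BPA libraries than in both controls: Fos, Fosl2, Atf3 and Egr1. None was stronger in both controls. Over the 12157 genes with a promoter peak in every library, the groups were apart in the same direction for 40.7% and in the other for 18.7%, so that many promoters shared this shift, and 4 of 7 is a small count against it. With 2 libraries a group a test cannot give a two-sided exact permutation p under 0.333, and these ranks were compared without a test. The median difference, BPA minus control, was -5.02 percentage points over the 7 members and -1.85 over all genes.

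Fos, the prototype Fos partner of Jun, had control ranks of 7.82% and 8.50% and BPA ranks of 3.58% and 2.70%. The gap between group means was -5.02 points, against an SD of 0.481 in controls and 0.622 in BPA (n = 2 each). Fosl2, which encodes Fra-2, ranked 41.4%, 16.4%, 6.92% and 4.90% in control 1, control 2, BPA 1 and BPA 2, the order used from here on. Its controls were far from each other, and its summits lay at -847 to -655 bp from the start site. Fosb ranked 12.4%, 14.7%, 15.2% and 7.14%, with the groups overlapping.

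The Jun family was mixed. Jund, as given above, had both BPA libraries ahead at its nearest peak. Jun, a partner of the Fos proteins in AP-1, had the strongest control promoters among the members, with ranks of 3.88% and 3.49%. It ranked 3.65% in BPA 1 and 6.84% in BPA 2. Junb, a weaker activator, ranked 14.1%, 10.9%, 16.3% and 8.14% within 500 bp. In both genes BPA 1 and BPA 2 lay on either side of a control value. For Junb this rested on the limit of 500 bp, since the merged promoter region held a stronger BPA 1 peak with a rank of 10.1%, and with 1000 bp Junb had both BPA libraries ahead of both controls. The summit of the Junb peak within 500 bp was at -1306 to -1263 bp in 3 libraries and at 25 bp in BPA 1.

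Atf3, a stress-induced repressor and activator of the ATF family, ranked 16.4% and 17.3% in the controls and 5.67% and 4.73% in BPA. Egr1 ranked 14.0% and 11.9% in the controls and 2.59% and 1.89% in BPA, the strongest member promoter of both BPA libraries. Its summit lay at -1220 bp in control 1 and at -348, -333 and -257 bp in control 2, BPA 1 and BPA 2. The gaps between group means were -11.7 points for Atf3 and -10.7 points for Egr1, each above the spread within groups, with the largest SD at 1.44. Among all compared genes 18.6% had a lower difference than Atf3 and 20.4% a lower one than Egr1.

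**Figure D1:**
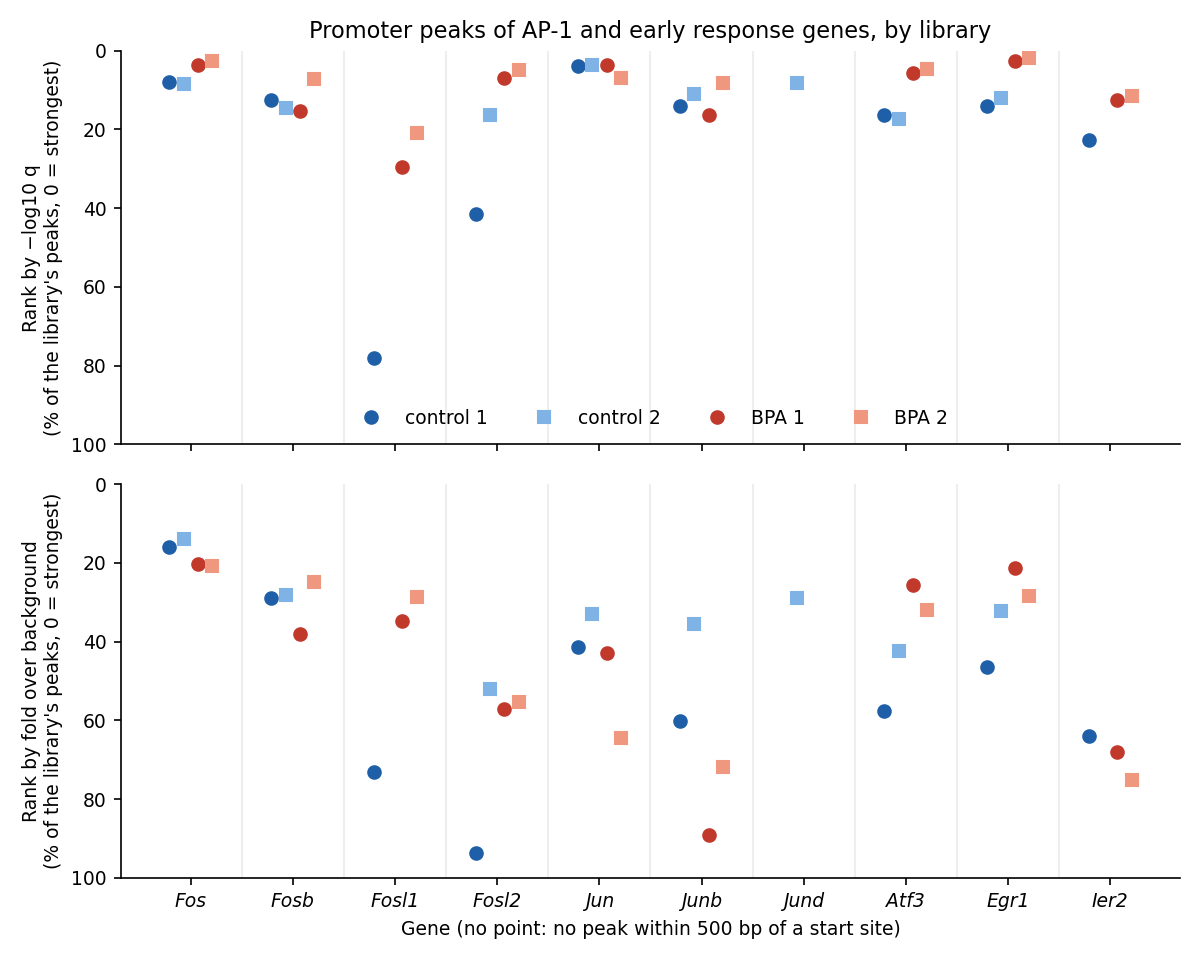
Rank of the promoter peak of each gene in each library, by −log10 q-value (top) and by fold over local background (bottom), as a percent of the library's peaks with 0 at the top. Each point is 1 library, and a missing point is a library without a peak within 500 bp. By −log10 q-value Fos, Fosl2, Atf3 and Egr1 had both BPA points above both control points, whereas by fold Fos, Jun and Junb had them below.

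The direction depended on the measure of strength. Ranked by fold over local background, Atf3 and Egr1 were still ahead in both BPA libraries, but Fos, Jun and Junb ranked behind in both. The median difference over the 7 members turned to 2.90 points, against -2.56 over all genes. Of all genes 38.9% were apart with BPA stronger and 15.9% with control stronger by this rank. Fos ranked 16.0%, 14.0%, 20.3% and 20.7% by fold. Junb ranked 60.2%, 35.6%, 89.1% and 71.9%. These are places within each list, whose median fold was 3.91, 4.29, 5.69 and 5.01. The Fos fold itself was higher in both BPA libraries, at 5.82, 7.01, 8.52 and 7.63, and the folds of Jun and Junb overlapped between the groups. The local background beneath these promoters was above the lowest of the library, at 10.3, 7.99, 18.3 and 64.3 for Fos, and the fold has it as divisor. Its part in the reversal was not tested.

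Set against promoters only, as the rank among the best promoter peaks of all coding genes, the same 4 genes were apart with BPA stronger and none with control stronger, with 35.6% and 24.8% of all genes. The median difference then was -22.9 points over the members and -2.45 over all genes. The share of genes with a lower difference was 1.32% for Egr1, 2.78% for Fosl2, 5.47% for Atf3 and 12.2% for Fos. For Fosb, Junb and Jun, whose differences were positive, it was 58.0%, 71.7% and 79.4%. This rank was chosen after seeing the data. Peak width separated the groups for only 2 members. The Egr1 peak was wider in BPA, at 1758 and 1412 bp in controls and 1840 and 1992 bp in BPA. The Fosb peak was narrower, at 529 and 485 bp against 436 and 480 bp. Over all genes 21.9% were apart with wider BPA peaks and 15.1% with narrower ones, against 1 of 7 members each way.

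Other genes of the pathway more often ranked ahead in BPA than in the controls. Among the dimer partners, 7 of 10 promoters were open in every library, of which 5 ranked ahead in both BPA libraries, with Jdp2 (-25.2 points), Mafk (-15.4) and Mafg (-15.1) the largest differences. Batf, Batf2 and Batf3, which pair with Jun proteins in immune cells, lacked a peak only in control 2. Of 12 other early response genes, 10 had a peak in every library, and 7 of the 10 ranked ahead in BPA, led by the phosphatase gene Dusp1 (-31.5), the mRNA decay factor Zfp36 (-27.6) and Ier3 (-26.1). Egr2 ranked ahead in the controls, by 2.74 points, and Egr3 and Egr4 had a peak only in BPA 2. All 9 inducing factors had a peak in every library, 6 ranked ahead in BPA, led by Elk3 (-28.7) and Mapk3 (-26.7), and Elk1 ranked ahead in the controls. These counts are descriptions, to be read against the 40.7% and 18.7% of all genes.

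Beyond promoters, the windows held 109 distal regions, defined as merged regions with no base within 500 bp of a curated start site. Their place was intergenic for 73, intronic for 22 and exonic for 14. Control 1 had a peak in 66 of them, control 2 in 62, BPA 1 in 72 and BPA 2 in 87. Peaks in all 4 libraries were found for 41 regions (37.6%) against 19.99% of all 131467 distal regions, and 31 regions (28.4%) were seen in 1 library only against 43.4%. The distal regions around these genes were thus recovered in more libraries than distal regions at large. The median window had 10 distal regions against 8 for all coding genes.

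**Figure D2:**
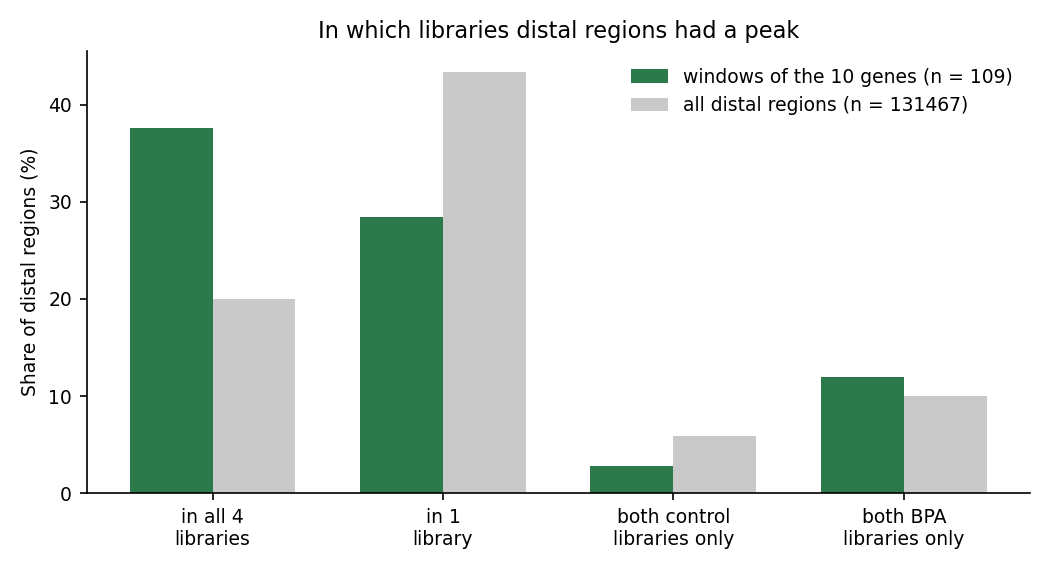
Share of distal regions, in percent, found in all 4 libraries, in 1 library, in both control libraries only and in both BPA libraries only, for the 109 regions in the windows of the 10 genes and for all 131467. Regions in all 4 libraries made up 37.6% and 19.99%.

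At least 2 distal regions of every window were shared by the 4 libraries. The best-ranked one in the Fos window was chr12:85454893-85455996, with its summit at -18593 bp in intergenic DNA. It ranked 2.75%, 3.95%, 1.13% and 1.28%, ahead of the Fos promoter itself in every library. In the Jun window, chr4:95081813-95083362 at -30477 bp ranked 8.47%, 2.76%, 6.88% and 9.96%. In the Fosb window the best region lay in an intron of the gene, chr7:19308019-19309240 at 1468 bp, and ranked 4.99%, 10.6%, 6.29% and 3.91%. Groups overlapped at Jun and Fosb. At the Fos region both BPA libraries were ahead by rank. In the limma test given below its normalised log2 fold differed by only 0.046 ± 0.169 (SE), with an adjusted p of 0.908. How often shared distal regions at large rank apart in this way was not counted.

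In the Ier2 window, chr8:84638703-84639966 at 23359 bp, in an exon of the calcium channel gene Cacna1a, ranked 13.7%, 21.3%, 6.20% and 4.22%. The Egr1 window had chr18:34886850-34888174 at 26319 bp, with 12.3%, 5.89%, 9.93% and 7.82%. The best distal regions of the remaining windows had a worst rank of 22.7% for Jund (chr8:70681635-70682951), 26.8% for Junb (chr8:84952736-84953348, in an exon of Rtbdn), 32.3% for Atf3 (chr1:191125621-191126364, nearest to Batf3), 33.2% for Fosl2 (chr5:32197492-32198314) and 35.7% for Fosl1 (chr19:5414298-5415097). The closest start site to several of these belongs to another gene, and the peaks do not say which gene a region serves.

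**Figure D3:**
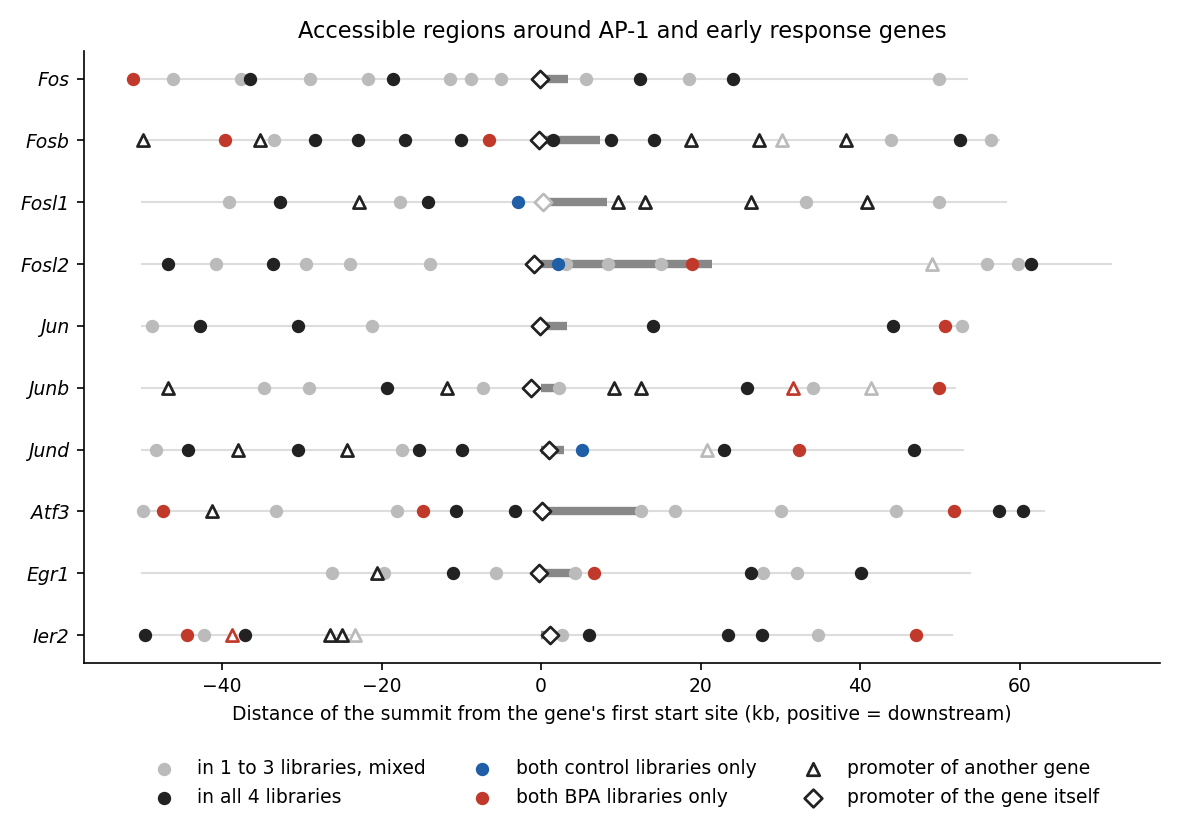
Regions in the window of each gene by the distance of the summit from its first start site in kb, positive downstream. The thick bar is the gene, filled circles are distal regions, triangles promoters of other genes and diamonds the promoter of the gene itself, and colour gives the libraries with a peak. The 3 control-only regions are in the windows of Fosl1, Fosl2 and Jund, and the 15 BPA-only regions are spread over 9 of the 10 windows.

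Distal regions formed clusters, here runs of at least 3 distal regions with gaps of at most 10000 bp. Clusters touched 9 of the 10 windows, all but that of Fosl1, and 65.3% of the windows of all coding genes. Taken library by library, 7 of 10 members had one in each control list and 6 in each BPA list, against 31.3%, 34.5%, 32.8% and 49.3% of all coding genes in control 1, control 2, BPA 1 and BPA 2. The Fosb cluster spanned the gene's start site, chr7:19295711-19349923, with 10 regions over 54213 bp, of which 7 had a peak in every library. The Fosb window held 8 shared distal regions in all, and 96.9% of coding genes had fewer. The largest cluster upstream of Fos, chr12:85417863-85468910, had 11 regions over 51048 bp, with 6, 3, 6 and 8 of them seen in control 1, control 2, BPA 1 and BPA 2, and only 2 in all 4. The Fosl2 cluster, chr5:32064260-32122611, had 11 regions, 6 of them shared by all libraries.

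The largest cluster to touch a window was upstream of Atf3, chr1:191230043-191354258, with 26 regions over 124216 bp. Only 2 of its regions lay inside the window. Each control library had 8 of its regions, BPA 1 had 14 and BPA 2 had 21. Of the 26 regions 6 were BPA only and 1 was control only, against 10.0% and 5.86% of all distal regions. Over the whole lists peak number was highest in BPA 2 (98060) and lowest in BPA 1 (72375), and the part of depth in these counts was not tested.

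Regions found in both libraries of 1 group and in neither of the other numbered 18 in the windows, 3 with control only and 15 with BPA only, 13 of them distal. As shares of the 109 distal regions these were 2.75% with control only and 11.9% with BPA only, against 5.86% and 10.0% of all distal regions. Over all merged regions the shares were 5.33% and 9.4%. BPA-only regions thus outnumbered control-only ones in the lists at large as well as in the windows.

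Single group-specific regions near the members were mostly weak. The strongest BPA-only distal regions were chr8:84706682-84708272 at -44429 bp of Ier2, in an exon of Nfix, with ranks of 22.9% and 20.7%, and chr7:19316282-19317104 at -6552 bp of Fosb, with 28.8% and 21.7%. Upstream of Atf3 were 2 more, at -47351 bp with 42.9% and 18.2% and at -14845 bp with 56.8% and 42.9%. Those in the Fos, Jun, Jund, Egr1 and Fosl2 windows had a worst rank of 61.4% to 92.4%. Promoters of 2 other genes were BPA only, that of Lyl1, a haematopoietic and endothelial transcription factor, in the Ier2 window with 27.7% and 22.4%, and that of Rtbdn in the Junb window with 82.1% and 74.9%. The 3 control-only regions were at -2932 bp of Fosl1 (52.1% and 37.8%), at 2138 bp of Fosl2 in an intron (55.4% and 78.4%) and at 5138 bp of Jund (86.4% and 73.1%).

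The AP-1 site TGANTCA was found in the 300 bases around the best summit of 20 of the 109 distal regions, a share of 18.3% (95% Wilson interval 12.2% to 26.6%, counting error only), against 14.7% of 131463 distal regions. The interval includes the share of all regions. Of the 41 distal regions present in every library 8 held it, or 19.5%, against 15.9% of all 26276 distal regions in every library. The 95% Wilson interval of the first share includes the second. The sites in those 8 regions and in the group-specific regions are shown with 20 bases on either side, as examples of the family's own binding sequence in open chromatin near these genes. They are 12 of the 20 regions with a site. Capitals mark the AP-1 site, and distances are from the start site of the named gene to the summit. The regions with a peak in all libraries were as follows.
Fosb region at -17027 bp, chr7:19327127-19327173, plus strand: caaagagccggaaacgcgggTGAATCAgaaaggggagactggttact
Fosb region at -22932 bp, chr7:19333059-19333105, plus strand: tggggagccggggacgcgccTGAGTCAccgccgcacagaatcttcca
Fosl1 region at -14162 bp, chr19:5433521-5433567, plus strand: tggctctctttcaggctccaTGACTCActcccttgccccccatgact
Fosl1 region at -14162 bp, chr19:5433543-5433589, plus strand: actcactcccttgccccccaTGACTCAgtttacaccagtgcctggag
Fosl2 region at -46720 bp, chr5:32089698-32089744, plus strand: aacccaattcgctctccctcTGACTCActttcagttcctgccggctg
Jun region at -42715 bp, chr4:95094768-95094814, plus strand: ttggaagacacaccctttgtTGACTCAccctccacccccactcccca
Jund region at -44310 bp, chr8:70653499-70653545, plus strand: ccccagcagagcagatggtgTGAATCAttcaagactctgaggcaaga
Jund region at -15318 bp, chr8:70682311-70682357, plus strand: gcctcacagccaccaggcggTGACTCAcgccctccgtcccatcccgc
Atf3 region at -10687 bp, chr1:191193934-191193980, plus strand: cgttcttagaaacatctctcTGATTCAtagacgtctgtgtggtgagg

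The regions of both BPA libraries only were 3, at Jun, Atf3 and Ier2.
Jun region at 50639 bp, chr4:95001568-95001614, plus strand: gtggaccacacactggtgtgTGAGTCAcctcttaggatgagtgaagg
Jun region at 50639 bp, chr4:95001596-95001642, plus strand: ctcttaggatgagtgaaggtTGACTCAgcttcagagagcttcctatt
Atf3 region at -47351 bp, chr1:191230745-191230791, plus strand: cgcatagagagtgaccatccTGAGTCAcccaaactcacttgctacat
Ier2 region at 47032 bp, chr8:84615776-84615822, plus strand: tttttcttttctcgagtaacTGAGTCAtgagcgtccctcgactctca

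The single control-only region with the site was at Jund.
Jund region at 5138 bp, chr8:70702937-70702983, plus strand: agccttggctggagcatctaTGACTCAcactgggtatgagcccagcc

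The 2 sites of the Fosl1 region at -14162 bp and the 2 of the Jun region at 50639 bp stood within the same 300 bases. Each of the other motifs was found in fewer of the 109 distal regions than the AP-1 site. A CArG box was in 3 (2.75%, against 1.69% of all distal regions) and an Egr site in 5 (4.59% against 0.357%). TGACGTCA was in 1 (0.917% against 0.325%). Only TATAAA, in 9, had a lower share than all distal regions (8.26% against 16.9%). The distal regions of the windows had a median of 53% G+C against 46% over all distal regions, and motif shares move with base composition.

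The size of the accessibility difference was tested with limma on the log2 fold over local background, quantile normalised, at the 38725 regions with a peak in every library. In the windows 70 regions were tested and 1 passed a Benjamini-Hochberg adjusted p of 0.05, with 8 of the 70 at an unadjusted p under 0.05, against 8005 of all 38725 regions. Over all regions 1.26% passed with BPA higher and 1.21% with BPA lower. A single call in 70 is near that background.

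The region that passed lay in the cluster upstream of Fos, chr12:85436771-85438009, in intergenic DNA with its summit at -36438 bp. Its fold over background was 3.93 and 5.14 in the controls and 12.2 and 11.3 in BPA, and its rank moved from 54.8% and 38.4% to 13.1% and 9.97%. Both BPA libraries were far above both controls, which were closer to each other than to either. The normalised log2 difference, BPA minus control, was 0.911 ± 0.213 (SE, 2 libraries a group), with an adjusted p of 0.0365 by limma over all shared regions. Without a trend in the variance the adjusted p was 0.0824, and without BPA 1 or BPA 2 it was 0.291 and 0.283, with differences of 0.90 and 0.91. The 300 bases around its summit, which held none of the motifs searched, are given in lower case throughout.
Fos region at -36438 bp, chr12:85437303-85437602, plus strand: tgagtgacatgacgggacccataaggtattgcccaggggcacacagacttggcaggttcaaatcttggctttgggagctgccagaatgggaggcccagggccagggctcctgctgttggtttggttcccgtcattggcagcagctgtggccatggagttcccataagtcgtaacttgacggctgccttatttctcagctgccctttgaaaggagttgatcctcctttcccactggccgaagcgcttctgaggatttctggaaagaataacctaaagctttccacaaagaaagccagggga

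No member promoter passed this test. The differences at the promoter regions ran from -0.33 ± 0.26 (SE) at Junb to 0.37 ± 0.25 at Atf3, whose adjusted p of 0.426 by limma was the lowest of the 9 promoter regions tested. Fos was at -0.16, Fosl2 at 0.30, Jun at -0.25, Jund at 0.14 and Egr1 at 0.27. By sign Fos, Jun and Junb lay on one side and Atf3, Egr1 and Fosl2 on the other, as did their mean ranks by fold. Both measures use the same fold, so this match is no separate evidence, and by rank the Fosl2 groups overlapped. Each value lay within about 1.5 SE of 0. Next after the Fos region came one at -19282 bp of Junb, with a difference of 0.71 and an adjusted p of 0.0672, one at -30534 bp of Jund, with -0.70 and 0.131, and one at -46720 bp of Fosl2, with -0.75 and 0.135. The region at -46720 bp of Fosl2 is among those shown above with an AP-1 site, as is the one at -14162 bp of Fosl1, which had a difference of 0.61 and an adjusted p of 0.173.

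**Figure D4:**
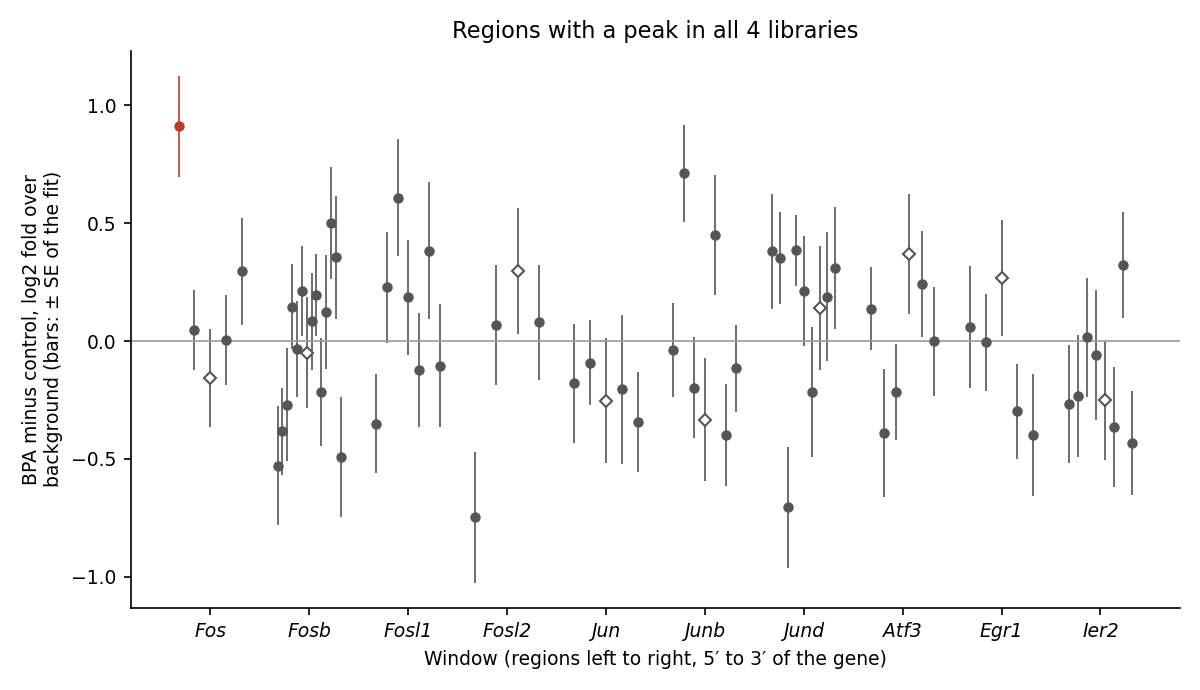
Difference in normalised log2 fold over background, BPA minus control, at the 70 regions of the windows with a peak in every library, with bars of ± SE of the limma fit. Diamonds are the members' promoters, and the region in red, at -36438 bp of Fos, is the one that passed the adjusted threshold.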

How the data were processed

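ATAC-seq was performed by the authors on visceral adipose nuclei of 4 CD-1 mice with the Omni-ATAC protocol. Per the labels, reads were trimmed with Trim Galore, mapped to mm10 with Bowtie2 2.3.5.1, handled with SAMtools, and peaks were called on each library alone with MACS2 2.2.7.1. The lists deposited by the authors hold a score (10 times the −log10 q-value, as a whole number), the fold of the summit pile-up over local background (a ratio), the −log10 p-value and the −log10 q-value. They hold no read totals. The pile-up and background were recovered from fold and p-value (tolerance 0.0001, relative) at 99.6% or more of the peaks in each list.

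Peaks that overlapped or abutted were merged into regions, and curated RefSeq transcripts on GRCm38 (45756, with 31601 start sites) defined promoters. The 4 libraries were all used, 2 per group. Presence, rank, width and clusters were described without a test. Regions shared by all libraries were tested with limma 3.58.1 in R 4.3.3 (variance trend, Benjamini-Hochberg over all shared regions). The fit was tried on simulated data whose planted changes were larger than any difference in the windows. Its recovery of smaller changes was not tested. P-values measure the spread between these libraries only. Motifs were searched with Python 3.11.15 and pysam 0.24.0. The members, gene lists, windows and tests were chosen with earlier results of these data known. Named regions were the best-ranked distal region of each window (lowest worst rank among those in most libraries), up to 2 group-specific regions per window, any region past the test and the largest clusters. Other genes of the pathway were named where a library lacked the promoter peak or among the 3 largest differences of a list. Alternatives covered thresholds, promoter and window sizes, rank measures, normalisation, the replicate block and each library left out.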

Additional observations from a re-analysis of the deposited data

How the results depend on the processing

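Of 87 values under alternative settings, 48 held. Counts had to stay within 1.5 times of the value reported. Median rank and width differences had to keep their direction and stay within 1 SD. The Fos region past the test had to keep its direction and a limma adjusted p under 0.05. Ranking by fold reversed the median promoter difference, from -5.02 to 2.90 points. Left out in turn, the 4 libraries gave -10.6 to -4.58, lowest without control 2, where Fosl1 and Ier2 joined the 7 genes. With 1000 bp either side of start sites it was -7.34, and among promoter peaks, an alternative chosen after seeing the data, -22.9. The members apart with BPA stronger numbered 4 of 7, then 7 of 9 with 1000 bp, 2 of 4 with the summit within 500 bp and 2 of 7 by fold. The shares of all genes were 40.7%, 40.7%, 39.7% and 38.9% in the same order. By fold 3 members were apart with control stronger, against 15.9% of all genes. Members with a promoter peak in all libraries fell from 7 to 4 when the summit had to lie within 500 bp, with Fosl2, Junb and Egr1 lost. The width difference, 0.27 on the log2 scale, ran from 0.0038 to 0.52 without 1 library, lowest without BPA 2.

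Distal regions numbered 187 with a window of 100 kb and 46 with 20 kb (109 with 50 kb), and 102 to 106 without 1 library. Group-specific regions numbered 30 and 7 at those windows, and 27 to 38 without 1 library, where 1 peak then defines a group. Clusters numbered 19, then 9 with 20 kb, 12 with gaps of 5000 bp, 7 with at least 5 regions, and 16 to 18 without 1 library.

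Regions past the limma threshold depended most on the settings. In the windows and over all regions they numbered 1 and 954, then 3 and 2560 with median centring, 13 and 5186 with pile-up, 7 and 3374 with normal scores and 2 and 2101 with the replicate block. Without a variance trend both counts were 0, with 9 of 70 and 7597 of 38725 at an unadjusted p under 0.05. Without control 1 or control 2 they were 6 and 5834, and 4 and 3468. Without BPA 1 or BPA 2 they were 0 and 162, and 0 and 190, with 4 and 3 regions in the windows at an unadjusted p under 0.05, and a group left with 1 library is assumed there to vary like the other. The range without 1 library was 0 to 6 in the windows and 162 to 5834 overall. The Fos region kept its direction under 10 of 10 alternatives and its call under 7. Same-numbered libraries did not deviate together (r = -0.0342 across 38725 regions), so the replicate block has no known pairing behind it. The causes of these changes were not tested. Whether small differences at the promoters could be detected with 2 libraries a group, of unequal pile-up and background, was not tested. The lack of a call there does not show that the groups were equal.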

Other observations

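Distal regions seen in both BPA libraries only held the AP-1 site TGANTCA in the 300 bases centred on the summit in 2392 of 13151 cases, or 18.2% (95% Wilson interval 17.5% to 18.9%). Those seen in both control libraries only held it in 1197 of 7710, or 15.5% (14.7% to 16.4%), and all distal regions in 14.7%. The G+C content of the same windows also differed, with a median of 49.3% in BPA-only and 43.3% in control-only regions. Divided by G+C content into 5 bins of all distal regions, BPA-only regions held the site more often in each bin, with 19.2%, 20.8%, 19.1%, 19.2% and 15.5% from the lowest bin to the highest, against 15.5%, 16.3%, 15.6%, 15.5% and 12.7% in control-only regions. TATAAA went the other way, with 12.5% in BPA-only and 19.7% in control-only regions. Regions are not replicates, each group has 2 libraries, and no test was made of these shares. AP-1 sites are common in open chromatin of many cell types, and the part of cell composition was not tested. In the windows of the 10 genes, 3 of 13 BPA-only and 1 of 3 control-only distal regions held the site, too few to compare.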
